A study of Mus musculus with 6 samples.

Results

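The 9 genes described here encode complement proteins and were measured as RNA in tumour cells sorted from mouse lung: C1ra, C1s1, Serping1, C4b, C2, Cfb, C3, Cfi and Hc. They were taken by symbol (written in capitals in the files, as C1S1, C1RA, C4B, CFB, CFI, HC and SERPING1), 9 of the 17842 genes with exonic reads, and 5 of them are also among the 13738 genes with intronic reads. The set was chosen by the exonic values of these same mA1 and control libraries, so the differences between the groups in these 9 genes are given as a description, without a test. The study asked how tumour cells differ in a mouse model of lung adenocarcinoma with and without targeted overexpression of Malat1, a nuclear noncoding RNA. All 6 libraries came from separate animals of the genotype K-rasG12D+, p53-/- and Cas9+GFP+, sampled 16 weeks after tumours were started, 3 with a control dRNA and 3 with the mA1 dRNA, the reagent of the overexpression arm. Tumour cells of both groups therefore share oncogenic K-ras, loss of p53 and Cas9, and were sorted as live cells with Epcam and GFP but without CD45. The promoter that drives recombination, the age of the animals and the level of Malat1 were not analysed here.

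Complement is a cascade of plasma and tissue proteins that marks surfaces and draws in leukocytes. In the classical pathway the proteases C1r and C1s, bound to C1q, cleave C4 and C2, while in the alternative pathway factor B pairs with C3b. Both routes form a convertase that splits C3, after which C5, encoded in the mouse by Hc, opens the terminal pathway. Factor I and the C1 inhibitor, encoded by Cfi and Serping1, hold the cascade in check. Liver supplies most of the circulating proteins, and epithelial cells of the lung, alveolar type 2 cells among them, also make several of them.

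Exonic values are read counts divided by a size factor per library, called normalised counts below, and rest on 71093708 to 85248140 exonic and 7200660 to 11422283 intronic reads per library. Markers of alveolar type 2 cells were abundant, with Sftpc, a surfactant gene of these cells, between 508943 and 9256651. One library stood apart: in control library 1 the summed level of 12 alveolar type 2 markers was 929220, against 8547411 to 13329604 in the other 5 libraries, and it was the lowest of the 6 for 12 of 12 markers. In bulk RNA, fewer cells of a type and less RNA per cell cannot be told apart. Of 10 fibroblast markers 3 were measured, with sums of 104 to 408 in controls and 309 to 461 in mA1 libraries, and Pdgfrb was at 0 in 4 libraries. Of 8 leukocyte markers 4 were measured, with sums of 190 to 343 and 129 to 279. Of 8 endothelial markers 6 were measured, with sums of 99.2 to 310 and 180 to 499. Of 14 macrophage markers 13 were measured, mostly through Cd14, with sums of 34134 to 42548 and 32985 to 42209, while C1qa was at 0 in 3 libraries. The part of these cells in the values below was not tested.

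All 9 genes passed the filter on low exonic values, a normalised count of at least 10 in at least 3 libraries. The 3 mA1 libraries all lay above the 3 controls for C1s1 and C3, all below them for C2 and Cfb, and overlapped with them for C1ra, C4b, Serping1, Cfi and Hc. The 4 of 9 genes without overlap stand beside 19.2% of all 16606 genes that passed the filter, 9.25% of which lay higher and 9.92% lower in mA1 libraries. The authors' deposited table calls 2 of the 9, C1s1 higher and C2 lower, beside 2.91% of its genes. As shares of all its genes, 0.846% are called higher and 2.07% lower. Limma with Benjamini-Hochberg adjustment over all genes called 0 of the 9, beside 0.00602% of genes (1 of 16606, with 2096 at an unadjusted p under 0.05). DESeq2 on the recovered reads called the same 2 as the authors, beside 2.75% of genes, and without control library 1 it called only C1s1 of the 9, beside 2.25% of genes. Since the genes were chosen with this contrast known, nothing is read from these counts.

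**Figure D1:**
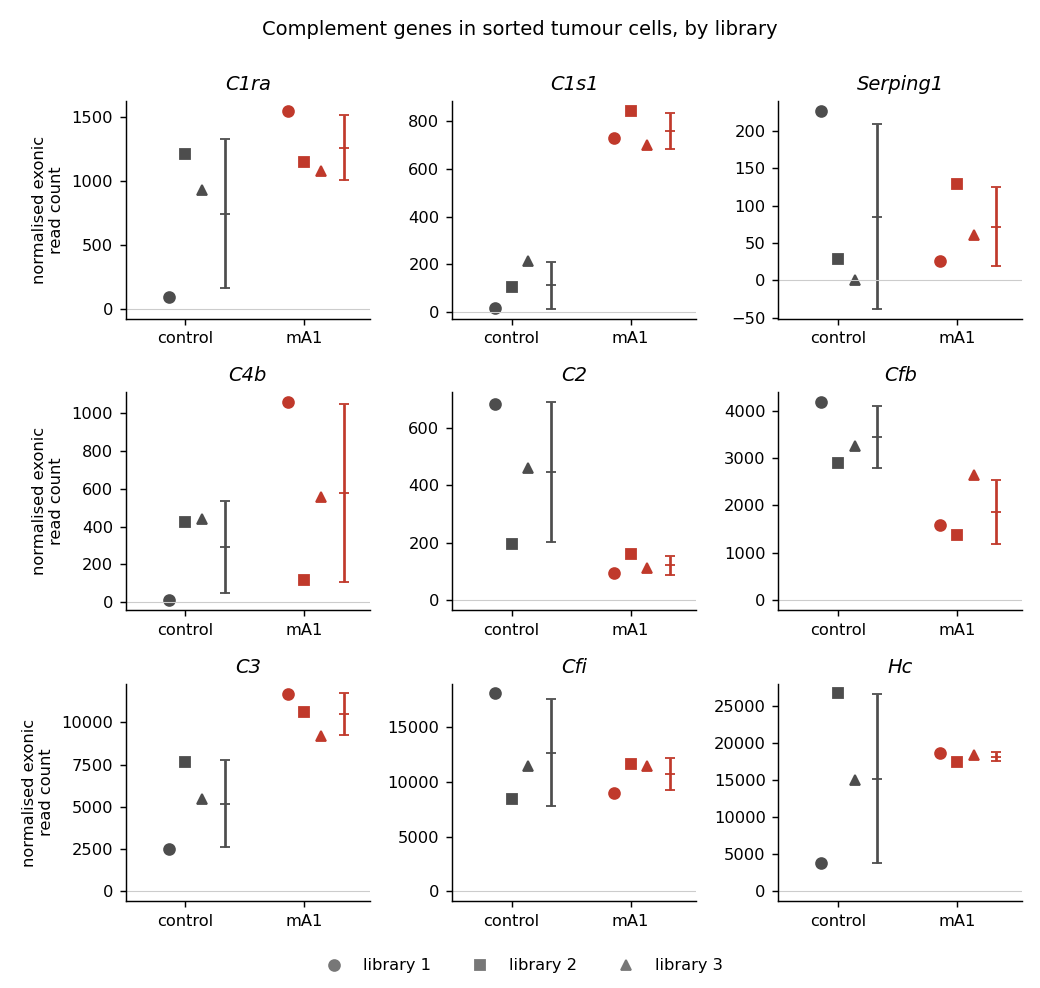
Normalised exonic read count of each of the 9 complement genes in the 3 control libraries (grey) and the 3 mA1 libraries (red), with marker shape giving the library number and the bar beside each group the mean ± SD (n = 3). The mA1 libraries lie between 702.7 and 844.8 for C1s1, above the controls at 16.8 to 213.6, while control library 1 is the lowest for C1ra, C3, C4b and Hc as well.

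C1s1 encodes C1s, the protease of the C1 complex that cleaves C4 and C2. Its normalised exonic counts were 16.8, 103.7 and 213.6 in control libraries 1, 2 and 3 and 728.0, 844.8 and 702.7 in mA1 libraries 1, 2 and 3. All mA1 libraries were more than 3 times the highest control. The means were 111 ± 98.6 and 758 ± 75.8 (SD, n = 3 each), a ratio of 6.81, and log2(value + 10), a scale that shrinks the changes of weakly expressed genes, differed by 3.12 (SE 0.74). Without control library 1 the ratio was 4.78 and the log2 difference 2.26. In the controls C1s1 thus spanned a wide range, while the 3 mA1 animals lay close together. The authors' deposited table gives C1s1 a log2 fold change of 2.77. These values rest on 17, 92 and 237 reads in controls and on 834, 836 and 695 reads in mA1 libraries.

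Part of the C1s1 transcript is shared with other genes. C1s1 lies on chromosome 6 from 124530345 to 124542359 on the minus strand (GRCm38, GENCODE M21), and the antisense gene Gm16567 crosses it. Gm16567 shares 576 exon bases with C1s1 (18.4% of the C1s1 exon length), and 61.9% of that length lies within Gm16567 introns. Intronic counts of Gm16567 were 14.5, 103.4 and 163.1 in controls and 531.2, 672.8 and 689.9 in mA1 libraries, so they were in the order of the C1s1 exonic counts among the controls, though not among the mA1 libraries, and did not overlap between groups either. The library kit does not mark strand, so reads of the sense and antisense gene cannot be told apart. In addition, 24.3% of the 50-base words of the longest C1s1 transcript also occur in its near-copy C1s2, for which no value was analysed here, and the call for C1s1 is uncertain to that extent.

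The 250 bases before the RefSeq start of C1s1 are shown because C1s1 is the member with the widest gap between the groups. Promoters of RefSeq (GRCm38.p6) matched 4 of the 9 genes by symbol: C1s1, C1ra, C3 and Hc. They were searched on both strands for letters like those bound by C/EBP, STAT, NF-kB and interferon regulatory factors, the factor families best known for driving complement and acute phase genes. Capitals mark matches to the C/EBP-like letters TTNNGNAA, on either strand, which share no base with each other here. The sequence at chr6:124542360-124542609 is given 5′ to 3′ on the minus strand.
C1s1: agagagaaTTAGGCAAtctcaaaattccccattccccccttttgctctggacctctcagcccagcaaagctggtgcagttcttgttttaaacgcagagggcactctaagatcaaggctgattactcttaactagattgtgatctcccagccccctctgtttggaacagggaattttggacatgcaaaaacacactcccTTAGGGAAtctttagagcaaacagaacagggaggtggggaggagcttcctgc
It holds 2 such matches, at 242 to 235 and at 52 to 45 bases upstream of the start. The same letters occur at least once in 36.8% of 32851 promoters of this length and at least 2 times in 10.9%. The STAT letters TTCNNNGAA (7.02% of promoters) and the NF-kB (0.356%) and interferon response (2.98%) motifs were not found in the 4 windows. A match is a run of letters and says nothing of binding.

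C1ra, the partner of C1s1, encodes C1r, the protease that activates C1s. It lies 6901 bases from C1s1 on the opposite strand of chromosome 6 (124512405 to 124523443, plus strand). C1ra had 93.9, 1209 and 927.5 normalised counts in controls and 1547, 1150 and 1074 in mA1 libraries. Control library 1 was far below every other library, and the rest overlapped. The means were 743 ± 580 and 1257 ± 254, and the log2 difference of 1.35 (SE 0.88) became 0.23 without control library 1. The adjacent C1rl, a C1r-like protease gene 1761 bases away, had 121.5, 1266 and 1317 counts in controls and 2077, 1401 and 933.2 in mA1 libraries, with a log2 difference of 1.21 that became 0.11 without control library 1 (limma, adjusted p = 0.601 with all libraries). C1ra and C1rl were thus low in the same library. Of the 50-base words of C1ra 48.0% also occur in C1rb, so its counts depend on how shared reads were assigned.

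The balance of the 2 proteases is given as a ratio, which carries the values of C1s1 already described. Per kb of exon the ratio of C1s1 to C1ra was 0.170, 0.0817 and 0.219 in controls and 0.448, 0.700 and 0.623 in mA1 libraries. Each mA1 library was above each control, control library 1 was within the range of the other controls, and the means were 0.157 ± 0.0698 and 0.591 ± 0.129. The ratio of C1ra to C1rl overlapped between groups, at 0.818 ± 0.131 and 0.914 ± 0.218.

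**Figure D2:**
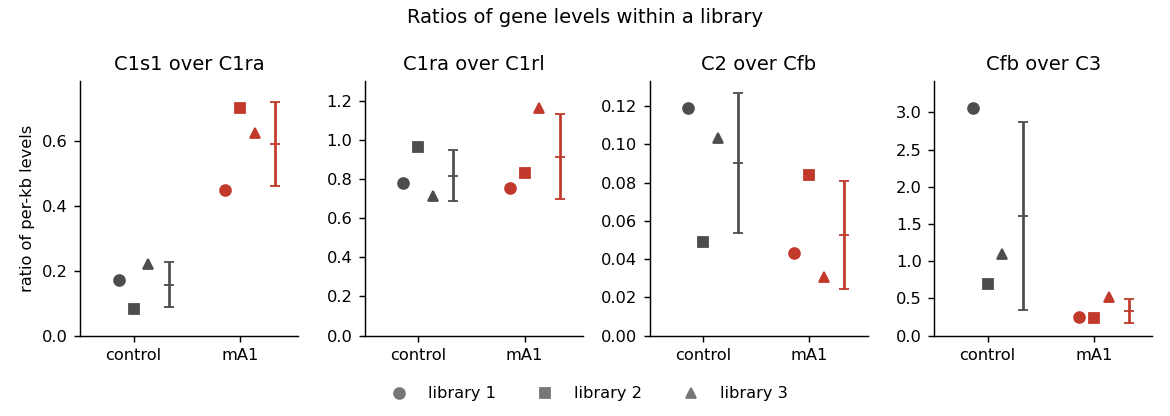
Ratios of normalised exonic counts per kb of exon within each library, for C1s1 over C1ra, C1ra over C1rl, C2 over Cfb and Cfb over C3, with the 3 control libraries in grey, the 3 mA1 libraries in red and the mean ± SD beside them. The groups do not overlap for C1s1 over C1ra (controls at most 0.219, mA1 at least 0.448) or for Cfb over C3 (controls at least 0.690, mA1 at most 0.522), and overlap for the other pairs.

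Serping1 encodes the C1 inhibitor, the serpin that blocks C1r and C1s. Its mean was the lowest of the 9 per exon length, and its counts were uneven. They were 227.2, 28.2 and 0.901 in controls and 26.2, 129.3 and 60.7 in mA1 libraries, as normalised counts. The value of 0.901 is a single read. The groups overlapped throughout, with means of 85.4 ± 124 and 72.1 ± 52.5. The log2 difference was 0.62 (SE 1.13) and became 1.80 without control library 1, which holds the highest value. Summed fibroblast markers were 408, 109 and 104 in controls and 461, 309 and 321 in mA1 libraries, highest among controls where Serping1 was highest, but highest among mA1 libraries where Serping1 was lowest. Their part in its level was not tested. Serping1 lies on chromosome 2 (84765387 to 84775444, minus strand) and shares no 50-base word with another gene.

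C4b encodes C4, whose cleavage product binds C2 to form the classical convertase. Its normalised counts were 10.9, 423.7 and 441.7 in controls and 1059, 116.2 and 555.1 in mA1 libraries. Control library 1 held 11 reads, and mA1 library 2 lay below the other 2 controls, so the groups overlapped. The means were 292 ± 244 and 577 ± 472, a ratio of 1.97, or 1.33 without control library 1. The log2 difference, taken between the means of the log2 values, was 1.41 (SE 1.33), and -0.0619 without that library. Without control library 1 the ratio and the log2 difference thus pointed in opposite directions. C4b is on chromosome 17 (34728380 to 34743882, minus strand), and 35.2% of its 50-base words recur in its copy C4a. C4a had at most 63.7 normalised counts in any library and 0 in mA1 library 3.

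C2 encodes the protease subunit of the classical convertase. It had 680.7, 194.9 and 460.6 normalised exonic counts in controls and 93.4, 158.6 and 110.2 in mA1 libraries. All mA1 libraries were below all controls, though the lowest control and the highest mA1 library were close. The means were 445 ± 243 and 121 ± 33.9, 3.69 times higher in controls and 2.71 times without control library 1. The log2 difference was -1.66 (SE 0.52), or -1.28 without that library, and the authors' deposited table gives a log2 fold change of -1.88. The gene Zbtb12 crosses C2 on the opposite strand, sharing 161 exon bases (4.16% of the C2 exon length) and holding 21.1% of that length in its introns. Intronic counts of Zbtb12 were 317.8, 116.3 and 225.5 in controls and 36.7, 64.0 and 40.5 in mA1 libraries, in the same order as the exonic counts of C2 over all 6 libraries. Without strand the reads of these 2 genes cannot be told apart where they overlap.

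In introns C2 had 13.6, 85.3 and 71.0 normalised counts in controls and 39.8, 63.1 and 70.1 in mA1 libraries, so the groups overlapped. The log2 difference of intronic counts was 0.23 (SE 0.70), against -1.66 in exons. The exonic log2 value minus the intronic one was 4.87, 1.105 and 2.54 in controls and 1.05, 1.21 and 0.59 in mA1 libraries. Those groups also overlapped, and the widest excess of exons was again in control library 1.

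Cfb encodes factor B, which plays in the alternative convertase the role that C2 plays in the classical one. It lies 85 bases from C2 on chromosome 17, Cfb from 34856374 to 34862518 and C2 from 34862604 to 34898265, both on the minus strand. Cfb had 4178, 2900 and 3256 normalised counts in controls and 1577, 1375 and 2633 in mA1 libraries. Like C2, it was lower in every mA1 library than in any control, and mA1 library 3 came closest to the controls. The means were 3445 ± 659 and 1862 ± 675, 1.85 times higher in controls, and the log2 difference was -0.93 (SE 0.28), or -0.78 without control library 1. A gene model that reads through both genes, Gm20547, holds 79.5% of the exon bases of Cfb and 42.8% of those of C2, so the share of reads given to each is uncertain. C2 stood at 0.119, 0.0490 and 0.103 of Cfb per kb in controls and at 0.0432, 0.0842 and 0.0305 in mA1 libraries, with overlap.

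C3 encodes the central protein of the cascade, on which all pathways meet. It had 2491, 7656 and 5435 normalised exonic counts in controls and 11639, 10587 and 9190 in mA1 libraries. Every mA1 library was above every control, and control library 1 was the lowest of the 6. The means were 5194 ± 2591 and 10472 ± 1229, a ratio of 2.02, or 1.60 without control library 1. The log2 difference was 1.15 (SE 0.38), or 0.69 without that library, and the authors' deposited table does not call C3. Intronic counts of C3 were few, 13.6, 115.0 and 17.3 in controls and 60.8, 109.8 and 120.4 in mA1 libraries, and overlapped.

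C3 moved against Cfb. The ratio of Cfb to C3 per kb was 3.05, 0.690 and 1.09 in controls and 0.247, 0.236 and 0.522 in mA1 libraries, so that the mRNA of factor B exceeded that of C3 in 2 of 3 controls and in 0 of 3 mA1 libraries. The ratio carries the values of both genes already described. With Cfb lower and C3 higher in every mA1 library than in any control, the groups could not overlap. Control library 1 had by far the highest ratio. C3 lies on chromosome 17 (57203970 to 57228136, minus strand) and shares no 50-base word with another gene.

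The promoter of C3 is shown for the run of C/EBP-like letters close to its start, marked in capitals as above. The sequence at chr17:57228137-57228386 is on the minus strand, 5′ to 3′.
C3: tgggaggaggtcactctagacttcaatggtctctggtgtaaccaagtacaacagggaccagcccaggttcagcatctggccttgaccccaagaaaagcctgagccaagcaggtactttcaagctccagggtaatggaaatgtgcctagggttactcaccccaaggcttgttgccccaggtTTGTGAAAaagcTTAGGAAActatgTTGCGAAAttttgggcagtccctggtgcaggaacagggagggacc
It holds 3 matches, TTGTGAAA at 70 to 63, TTAGGAAA at 58 to 51 and TTGCGAAA at 45 to 38 bases upstream. At least 3 matches occur in 2.61% of promoters. The window of C1ra held 2 matches and that of Hc held none. Among the genes that encode such factors, Cebpd had 4543 ± 209 normalised counts in controls and 6171 ± 2482 in mA1 libraries (limma, adjusted p = 0.586) and Cebpb 115 ± 32.6 and 89.7 ± 10.3 (limma, adjusted p = 0.781).

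Cfi encodes factor I, the protease that inactivates C3b and C4b. Per exon length it was the most abundant of the 9, the 734th of 17159 genes. Its normalised counts were 18030, 8442 and 11462 in controls and 8985, 11576 and 11446 in mA1 libraries. Control library 1 was the highest of the 6 and the other 5 lay close together, with means of 12645 ± 4902 and 10669 ± 1460. The log2 difference was -0.18 (SE 0.27), and 0.11 without control library 1. In introns Cfi had 243.2, 75.0 and 223.6 counts in controls and 162.2, 320.8 and 203.3 in mA1 libraries, with overlap. Cfi lies on chromosome 3 (129835884 to 129875332, plus strand).

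Hc encodes C5, the source of the C5a peptide and the first protein of the terminal pathway. Its normalised exonic counts were 3873, 26692 and 15016 in controls and 18670, 17514 and 18365 in mA1 libraries. The mA1 animals were nearly equal and lay between the controls. The means were 15194 ± 11411 and 18183 ± 599, and the log2 difference of 0.65 (SE 0.63) became -0.14 without control library 1. Intronic counts of Hc showed the same low library, 190.9, 2534 and 2391 in controls and 1886, 2983 and 1897 in mA1 libraries, with a log2 difference of 1.05 (SE 0.81) that became -0.16 without it. Hc lies on chromosome 2 (34983331 to 35061438, minus strand). The antisense gene Gm13449 crosses it, sharing 1.21% of its exon bases and holding 16.3% of them in its introns. Gm13449 had 899, 7709 and 3981 intronic counts in controls and 3898, 3795 and 4237 in mA1 libraries, in the order of Hc among the controls, and without strand these reads cannot be assigned to either gene.

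Among the intronic values 4 of the 9 genes passed the filter, and C1ra, with 0, 4 and 10 intronic reads in controls and 8, 22 and 98 in mA1 libraries, did not. Intronic reads of C1s1, C4b, Cfb and Serping1 were not analysed here. The authors' deposited table and limma each call 0 of the 4, beside 1.05% of genes in the authors' intronic table and 0 of 12791 genes by limma (1343 at an unadjusted p under 0.05). DESeq2 also called 0 of the 4, beside 1.05% of genes. In all 4 the groups overlapped, beside 16.8% of genes without overlap.

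Levels can be compared between genes only per exon length. In normalised exonic counts per kb, averaged over the 6 libraries, the order was Cfi (5251), Hc (2664), C3 (1523), Cfb (939), C1ra (336), C1s1 (139), C4b (76.3), C2 (73.1) and Serping1 (33.9). Hc was above C3, Cfb above C1ra and C1ra above C1s1 in 6 of 6 libraries, Cfi above Hc and C2 above Serping1 in 5 of 6. C3 was above Cfb, and C1s1 above C4b, in 1 of 3 controls and in 3 of 3 mA1 libraries, and C4b was above C2 in 1 of 3 controls and 2 of 3 mA1 libraries. The order of C4b and C2 thus lies within their spread in both groups, and that of the other 2 pairs within it in the controls. C1s1 ranked 8th of the 9 in each control and 6th in each mA1 library, with 35.6 ± 31.5 and 242 ± 24.2 counts per kb. C3 had 1010 ± 504 and 2036 ± 239 counts per kb, and Cfb 1219 ± 233 and 659 ± 239.

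**Figure D3:**
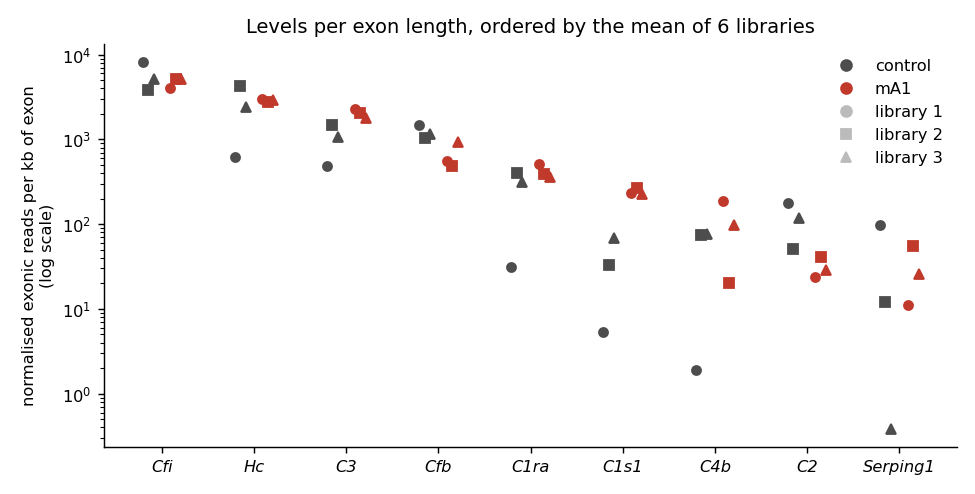
Normalised exonic reads per kb of exon on a log axis for each of the 9 genes, ordered by the mean of the 6 libraries, with controls in grey, mA1 libraries in red and the marker shape giving the library number. Levels run from Cfi with a mean of 5251 to Serping1 with 33.9, and the red points of C1s1 all lie above the grey ones.

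Control library 1 held the lowest or the highest value for each of the 9 genes. It was the lowest of the 6 libraries for C1s1, C1ra, C3, C4b and Hc and the highest for C2, Cfb, Cfi and Serping1, beside 26.5% of all 16606 genes for which it was lowest and 24.4% for which it was highest. Relative to the mean of the 6 libraries its log2 values were -3.64 for C4b, -3.28 for C1s1, -2.92 for C1ra, -1.90 for Hc and -1.49 for C3, next to a median of -2.37 over the 12 alveolar type 2 markers. They were 2.05 for Serping1, 1.60 for C2, 0.76 for Cfb and 0.67 for Cfi, next to a median of 0.54 over 6 epithelial markers. The part of this library's cells in the complement values was not tested. The median log2 difference of the 9 genes was 0.65 with 6 positive and 3 negative, and 0.11 without control library 1 with 5 positive and 4 negative, beside medians of 0.0390 and 0.0227 over all genes.

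**Figure D4:**
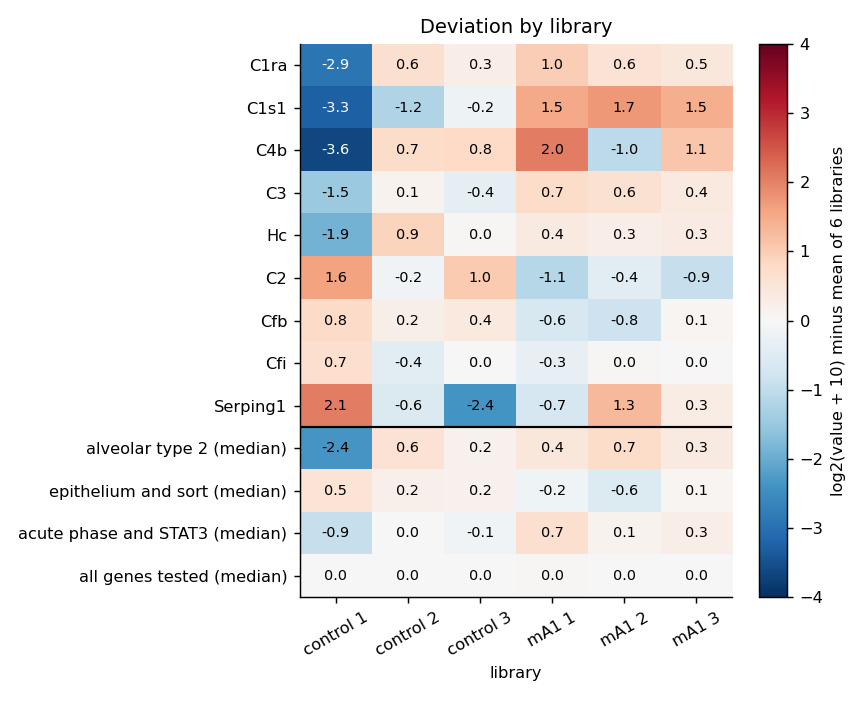
Deviation of log2(value + 10) from the mean of the 6 libraries, for the 9 complement genes and, below the line, as medians over lists of alveolar type 2, epithelial and acute phase genes and over all genes tested, with 1 column per library and blue for low and red for high. Control library 1 is the lowest library in the top 5 rows, as it is for the alveolar type 2 markers, and the highest in the next 4.

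Genes whose pattern over the 6 libraries was most like a member were sought among 12441 genes with a mean of at least 100, by the mean absolute difference of centred log2 values. For C1s1 they were Sox6 (0.36), D330050G23Rik (0.41) and Chst2 (0.43). For C3 they were Slpi (0.0664), Tmem231 (0.0888) and Dclk1 (0.0975), and for Hc they were Megf6 (0.0635), Hrct1 (0.0870) and Snx22 (0.102). The nearest gene lay at 0.0585 to 0.163 for C1ra, C2, C3, Cfb, Cfi and Hc and at 0.36 to 0.51 for C1s1, C4b and Serping1.

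The rest of the complement system was described with 4 lists of 50 other genes, 28 of which passed the filter. Of these 12 had a positive and 16 a negative log2 difference, with a median of -0.0308, and limma called 0, with 3 at an unadjusted p under 0.05. The authors' deposited exonic table, used for all lists here unless stated, calls 1 lower and 0 higher, which is 3.85% of the 26 with an adjusted p there. That gene, C4bp, encodes the C4b-binding protein, a cofactor of factor I. C4bp had 1096, 1129 and 1672 normalised counts in controls and 227.8, 441.6 and 327.6 in mA1 libraries, without overlap. The means were 1299 ± 324 and 332 ± 107, 3.91 times higher in controls, and the authors' deposited table gives a log2 fold change of -1.97 (adjusted p = 2.49e-05). Limma gave C4bp a log2 difference of -1.96 (SE 0.33) and an adjusted p of 0.207, and DESeq2 without control library 1 an adjusted p of 0.000138.

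Other components and regulators were less separated. Of 8 tested components of the classical and lectin pathways 4 were higher and 4 lower (median log2 difference 0.16, and -0.32 without control library 1), with 0 called by limma or in the authors' deposited table. Fcna, encoding ficolin A of the lectin pathway, had 1476 ± 687 and 543 ± 474 counts with overlap (limma, adjusted p = 0.366). The C1q genes C1qa, C1qb and C1qc, made by macrophages, did not exceed 74.4 counts in any library. C6, of the terminal pathway, had 511.7, 4078 and 4227 counts in controls and 8002, 4948 and 3600 in mA1 libraries (limma, adjusted p = 0.528), low in the same control as C1ra and Hc. Cfhr2, a factor H-related gene, had 230 ± 129 and 184 ± 185 (limma, adjusted p = 0.762). Among 11 regulators 4 were higher and 7 lower, with a median of -0.11. Clu, encoding clusterin, which blocks the terminal complex, had 3571836 ± 1272584 and 1910780 ± 667846 counts without overlap (limma, adjusted p = 0.457). Cr1l, encoding Crry, a membrane inhibitor of C3 convertases, stood at 6916 ± 629 and 6753 ± 344 (limma, adjusted p = 0.934). Of the 6 tested receptors 3 were higher and 3 lower. The most abundant were C1qbp, encoding a C1q-binding protein, at 8271 ± 1388 and 8030 ± 288 (limma, adjusted p = 0.949), and Itgb2, an integrin chain of leukocytes, at 124 ± 102 and 179 ± 171 (limma, adjusted p = 0.873). The receptor genes C3ar1 and C5ar1 did not exceed 33.2 and 52.6 counts.

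Acute phase, interferon and NF-kB genes and the chromosomal neighbours were read the same way. The acute phase and STAT3 list holds acute phase products, such as Hp, Orm1, Fga and Itih4, beside signalling genes, so it is no list of inducers. Of its 24 tested genes 20 were higher and 4 lower, beside 8932 higher and 7674 lower of all 16606 genes. Their median log2 difference was 0.90, or 0.31 without control library 1, which was the lowest library for 15 of the 24. The authors' deposited table calls 1 of them, Fgl1, a hepatokine of the fibrinogen family, with 335 ± 130 and 1266 ± 881 counts and an adjusted p of 0.0350. Limma gave Fgl1 an adjusted p of 0.298, and DESeq2 without control library 1 an adjusted p of 0.0188. Of 23 interferon genes 11 were higher and 12 lower (median -0.0424), and of 20 NF-kB genes 8 and 12 (median -0.32), with 0 called in either list by limma or the authors. Of the interferon list, the receptor gene Ifngr1 had 18604 ± 2824 and 14425 ± 3675 counts and the kinase gene Jak1 12499 ± 2411 and 13354 ± 3002 (limma, adjusted p = 0.501 and 0.882). Of the NF-kB list, the adhesion gene Icam1 had 22221 ± 12666 and 39400 ± 1754 counts and the chemokine gene Cxcl5 19211 ± 8077 and 10712 ± 6408 (limma, adjusted p = 0.367 and 0.479). Among 24 neighbours of C2, Cfb and C4b on chromosome 17, 5 were higher and 19 lower (median -0.18), and the authors' deposited table calls Neu1 lower, a lysosomal sialidase gene with 11057 ± 1684 and 6766 ± 1245 counts (adjusted p = 0.0412 there, 0.254 by limma, and 0.108 by DESeq2 without control library 1). The authors' deposited intronic table calls Zbtb12, the gene that crosses C2, lower (log2 fold change -2.23, adjusted p = 0.0475), while limma gave its intronic counts 0.355 and DESeq2 without control library 1 gave 0.213. Of 10 neighbours of C1s1 on chromosome 6, 9 were higher and 1 lower with a median of 0.20 and 0 called by limma or the authors, against 3.12 for C1s1 itself. The most abundant of them were Tpi1, a glycolytic gene, at 35966 ± 2068 and 37479 ± 5749, and Phb2, a prohibitin gene, at 13049 ± 757 and 13968 ± 1419 (limma, adjusted p = 0.913 and 0.782).

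**Figure D5:**
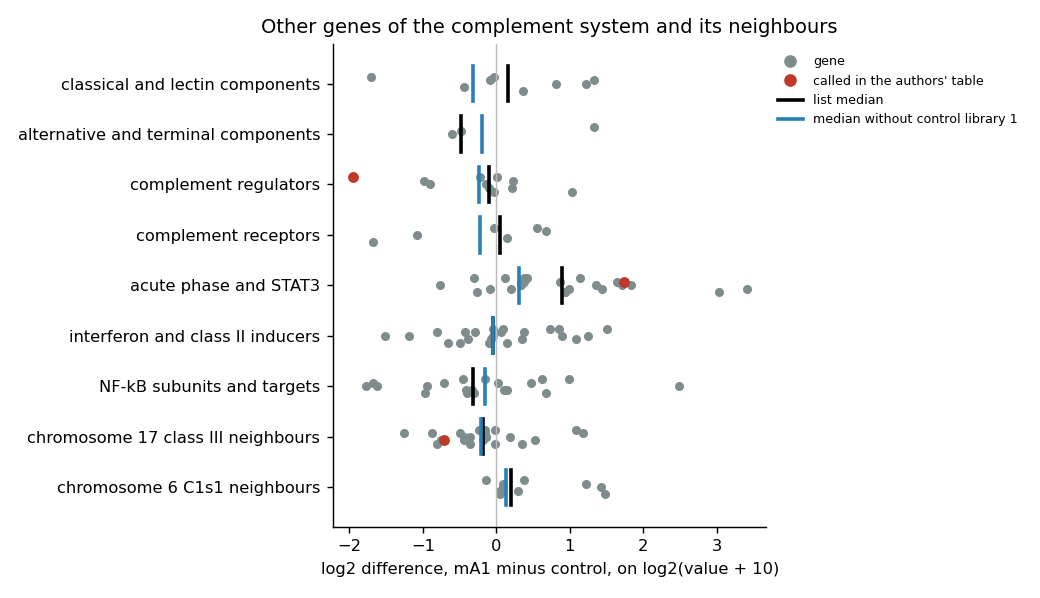
Log2 difference (mA1 minus control, on log2(value + 10)) of each tested gene of 9 lists, 1 point per gene, with the list median in black, the median without control library 1 in blue, and genes called in the authors' deposited table in red. Called genes are C4bp and Neu1 on the lower side and Fgl1 on the higher side, and the acute phase median moves from 0.90 to 0.31 without control library 1.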

How the data were processed

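Polyadenylated RNA of sorted tumour cells was measured in 6 libraries. The submitters' processing notes name TopHat2 2.1.1, HTSeq 1.99.2, DESeq2 and the build mm10 without roles. How strand and multi-mapping reads were handled was not given there. The deposited exonic and intronic signal values are, per the file headers and the values, read counts that the authors divided by a size factor per library. Whole reads were recovered at 100% of values (tolerance 0.05). Other deposited columns hold the authors' log2 fold change, its SE, a test score, a p-value and its adjusted form.

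limma 3.58.1 (R 4.3.3), tested on simulated data, was run on log2(value + 10) of genes reaching 10 in 3 or more libraries, with Benjamini-Hochberg adjustment at 0.05. The simulated counts had the same fixed variability setting for all genes and held no deviating library like control library 1. How limma performs at the spread of the real libraries was therefore not tested. edgeR 4.0.16 and DESeq2 1.42.0 on recovered reads were alternatives, with other pseudocounts, filters and scalings, the replicate number as a block, and each library left out. DESeq2 without control library 1 was added after seeing the data. The 9 genes, the 10 pathway lists and the 10 marker lists were chosen with earlier results of these data known. All 9 genes are named, and of each pathway list those called by limma or the authors (at most 6), otherwise abundant ones, and genes copied from or next to a member. Of each marker list the genes with the highest and lowest mean are named. Results for some genes of the lists are not reported here. Clu, Cr1l, C1qb, C1qc, C3ar1, C5ar1, Cebpb, Cebpd, Krt8 and Pecam1 were named after their values were seen. Exon lengths and positions came from GENCODE M21, matched for 17159 of 17842 exonic names. Replicates are separate animals, and their number limits precision. Same-numbered libraries were not paired.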

Additional observations from a re-analysis of the deposited data

How the results depend on the processing

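In exons limma passed 1 gene, edgeR 0 with TMM and 0 with RLE factors, DESeq2 478 (140 higher, 338 lower), and limma with the replicate block 0 (1868 at an unadjusted p under 0.05). Leaving out 1 library gave 0 to 1. In introns limma passed 0 genes, DESeq2 143 (71 higher, 72 lower), and leaving out 1 library gave 0 to 1, the 1 arising without mA1 library 3. The causes were not tested. The numbers were not taken to pair the animals: deviations of same-numbered libraries correlated at 0.0187, 0.0659 and -0.102 in exons. The replicate block cannot change a group difference in this balanced design. The complement median of 0.65 in exons and 0.74 in introns with the block therefore says nothing of pairing.

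The exonic complement median ran from 0.11 (without control library 1) to 1.25 (without control library 2), and was 0.26 with DESeq2 and 1.15 with a pseudocount of 1. The intronic median ran from 0.27 (without control library 1) to 1.14 (without control library 2). Over 13 gene values and 15 settings, 10 of 195 changed sign, in 7 values: C4b, Cfi and Hc in exons and Hc and C2 in introns without control library 1, Cfi in introns without control library 2, and Serping1 under edgeR, DESeq2 and without control library 3. C1s1, C1ra, C2, C3 and Cfb in exons changed sign under none of these settings. The other filters and the replicate block leave the log2 difference of a gene as it is. For all 13 values those settings therefore could not change a sign. For C1s1, C2, C3 and Cfb the groups did not overlap. Leaving out a library or changing the pseudocount, filter or block could therefore not change their sign. C1ra kept its sign but fell to 0.23 without control library 1. Serping1 rests on 1 to 230 reads per library, and its single read in control library 3 limits the precision there.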

Other observations

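Coagulation and fibrinolysis genes, whose proteases act beside complement in plasma, were read in the same way. Of 20 tested genes 8 were higher and 12 lower in mA1 libraries, with a median log2 difference of -0.18, or 0.0318 without control library 1, and limma called 0. The authors' deposited exonic table calls 2 lower, and their intronic table calls Plat lower (adjusted p = 0.0382). Proc, encoding the anticoagulant protein C, had 8351 ± 2631 normalised counts in controls and 2869 ± 1497 in mA1 libraries (n = 3 each). Its adjusted p was 0.0150 in the authors' deposited table, 0.254 by limma and 0.0610 by DESeq2 without control library 1. Plaur, encoding the urokinase receptor, had 42917 ± 12172 and 21440 ± 4870. Its adjusted p was 0.0168 in the authors' deposited table, 0.244 by limma and 0.0326 by DESeq2 without control library 1. For both genes the groups did not overlap.

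The keratin genes Krt8 and Krt18, of the epithelial markers, were called lower in the authors' deposited table (adjusted p = 0.0131 and 0.0232, log2 fold changes -0.74 and -0.75), with limma adjusted p of 0.279 and 0.294. The authors' deposited intronic table also calls Krt8 lower (adjusted p = 0.00447). DESeq2 without control library 1 called 2 of the 6 epithelial markers in exons and 1 of 6 in introns. Pecam1 is an endothelial marker named after its values were seen. It had 37.5, 23.7 and 4.51 exonic counts in controls and 120.5, 107.1 and 110.2 in mA1 libraries, without overlap. Its exonic counts were not called by limma (adjusted p = 0.257) or in the authors' deposited table (adjusted p = 0.135). Of the 5 endothelial markers tested in exons, Pecam1 among them, 3 were higher and 2 lower in mA1 libraries. Their median log2 difference was 0.13, or 0.56 without control library 1. Intronic counts of Pecam1 were 4.84, 1.29 and 3.84 in controls and 64.0, 70.0 and 41.5 in mA1 libraries. The authors' deposited intronic table calls it higher (log2 fold change 4.11, adjusted p = 0.0376), DESeq2 without control library 1 does as well (adjusted p = 0.0316), and limma does not (adjusted p = 0.319).

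Marker lists are given by their most abundant and, for all but the leukocyte list, least abundant measured gene. Of the fibroblast list Col1a1 had 142 ± 186 and 169 ± 144 normalised counts in controls and mA1 libraries, and Pdgfrb was the lowest. Of the leukocyte list Ptprc, encoding CD45, had 223 ± 71.7 and 158 ± 66.6. Of the macrophage list Cd14 had 32323 ± 4876 and 34330 ± 3840, and C1qa was the lowest. Of the endothelial list Vwf had 65.9 ± 81.9 and 77.3 ± 125, and Tek was the lowest at 32.7 ± 56.7 and 8.04 ± 10.6. Of 6 neutrophil markers 5 were measured, from Cxcr2 to S100a9, with sums of 226 to 2073 in controls and 353 to 757 in mA1 libraries. Of 6 mesothelial markers only Msln and Upk1b were measured, with sums of 33792 to 59348 and 18523 to 49296. Of 7 hepatocyte markers 6 were measured, from Alb to Apoc3, with sums of 621 to 3814 and 1193 to 9458. The 7 airway markers, from Cyp2f2 to Foxj1, had sums of 11188 to 27227 and 33365 to 52203. The 6 epithelial markers, from Krt18 to Epcam, had sums of 1303375 to 1741739 and 790009 to 1152803. The least abundant of the 12 alveolar type 2 markers, Etv5, had 7549 ± 4868 and 9553 ± 1400.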
